A study of Rattus norvegicus with 4 samples.

Results

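Glucocorticoid signalling in the rat kidney was described here through 10 genes: the steroid receptors Nr3c1 and Nr3c2, the steroid-inactivating enzyme Hsd11b2, and Klf9, Klf10, Klf15, Sgk1, Tsc22d3, Fkbp5 and Dusp1, which are known to respond to steroid hormones or to other acute signals. All probe sets named for these genes in the platform annotation were taken, 14 of the 15866 probe sets on the array that are not controls. Klf9 and Klf10 had been picked because of their nicotine ratios in these same arrays, so their nicotine values are a description and carry no test. The other 8 genes were picked for their function, with earlier results of these data known.

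The 4 arrays came from kidneys of male rats at 9 weeks of age. One pool held RNA from 13 spontaneously hypertensive rats (SHR, an inbred strain with inherited high blood pressure) exposed to nicotine before birth, and another RNA from 12 SHR given saline before birth. The remaining pools held 12 Brown Norway rats (BN, an inbred strain with normal blood pressure) exposed to nicotine prenatally and 12 BN given saline prenatally. There was 1 Affymetrix RAE-230A array for each pool, so neither nicotine against saline within a strain nor SHR against BN within a treatment has a replicate. The labels give no dose of nicotine. The comparison of nicotine with saline asks what exposure before birth leaves in the grown kidney, and the strain comparison asks how the kidneys of SHR and BN differ.

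Glucocorticoids act by entering the cell and binding the glucocorticoid receptor, encoded by Nr3c1, which waits in a complex with heat shock protein 90 and co-chaperones and then moves to the nucleus to switch genes on or off. In the distal nephron the mineralocorticoid receptor, encoded by Nr3c2, binds aldosterone and glucocorticoids about equally well, and the enzyme encoded by Hsd11b2 shields it there by inactivating corticosterone, the main glucocorticoid of rats. Receptor targets in the kidney include the kinase gene Sgk1, which keeps the epithelial sodium channel at the cell surface, and the Krüppel-like zinc finger factors Klf9 and Klf15, both of which also follow the circadian clock.

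Promoter sequence is shown for 4 of the genes. Klf9 was lower under nicotine in both strains, and Klf15 is the only other Krüppel-like member in the promoter table. Dusp1 and Tsc22d3 passed the strain threshold used below. Sgk1 also passed it, and its windows are not shown. The strain results of Tsc22d3 and Sgk1 depended on the processing, as given below. Sequences are the 250 bases before an annotated start, from RefSeq on build GRCr8, written 5′ to 3′ in the direction of the gene. They lie at chr1:230126396-230126645 (plus strand) for Klf9, chr4:124522765-124523014 (plus strand) for Klf15, chr10:17184603-17184852 (plus strand) for Dusp1 and chrX:109065431-109065680 (minus strand) for the second of 3 listed starts of Tsc22d3. Capitals mark matches, on either strand, to the core of the glucocorticoid response element (ACANNNTGT), the E-box CACGTG bound by clock factors, the cyclic AMP element TGACGTCA and the CACCC box bound by Krüppel-like factors.
Klf9: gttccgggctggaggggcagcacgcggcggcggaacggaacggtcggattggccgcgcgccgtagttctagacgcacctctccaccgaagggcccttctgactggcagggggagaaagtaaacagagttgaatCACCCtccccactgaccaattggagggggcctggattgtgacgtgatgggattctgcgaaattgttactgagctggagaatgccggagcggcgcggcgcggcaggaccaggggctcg
Klf15: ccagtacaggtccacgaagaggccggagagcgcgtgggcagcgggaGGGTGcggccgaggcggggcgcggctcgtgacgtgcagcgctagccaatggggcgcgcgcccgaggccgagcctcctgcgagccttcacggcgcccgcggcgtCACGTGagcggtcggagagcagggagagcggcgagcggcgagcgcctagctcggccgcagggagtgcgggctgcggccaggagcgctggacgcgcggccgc
Dusp1: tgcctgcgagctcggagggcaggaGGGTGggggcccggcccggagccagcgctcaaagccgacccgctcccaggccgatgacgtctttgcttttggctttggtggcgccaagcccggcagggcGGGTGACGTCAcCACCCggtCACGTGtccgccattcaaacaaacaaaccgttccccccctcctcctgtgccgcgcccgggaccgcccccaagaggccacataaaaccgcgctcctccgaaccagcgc
Tsc22d3: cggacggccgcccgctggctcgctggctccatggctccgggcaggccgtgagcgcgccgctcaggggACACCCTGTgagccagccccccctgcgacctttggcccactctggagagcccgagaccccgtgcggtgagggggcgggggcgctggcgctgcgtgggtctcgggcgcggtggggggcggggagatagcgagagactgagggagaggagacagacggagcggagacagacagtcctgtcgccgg

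The Klf9 window held 1 CACCC box, beginning 117 bases before the start, and no match to the other motifs. Klf15 had an E-box beginning 101 bases before its start and Dusp1 one beginning 107 bases before its start, with a cyclic AMP element beginning 124 bases before it. In Dusp1 the cyclic AMP element overlaps 1 of its 3 CACCC boxes, and in Tsc22d3 the glucocorticoid core, beginning 183 bases before the start, contains the CACCC box. Over the 12 windows listed for the 7 members found in the promoter table, the glucocorticoid core occurred in 1, the E-box in 2 and the CACCC box in 8. The 1 with the core is the Tsc22d3 window printed, and the windows of the other starts of that gene lack it. The 3 windows of Sgk1 held 1 CACCC box and no match to the other motifs. Of all 33469 windows of the same length, 5.81% held the core, 5.59% the E-box, 1.59% the cyclic AMP element and 49.2% the CACCC box. These matches describe letters in a short window and say nothing about binding.

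Every value below is the signal the authors deposited, a linear intensity with no absolute unit, so levels are compared only within a probe set. A floor of 44.5, the 40th percentile of the table, stood in for any smaller signal when log2 was taken. Probe sets were tested if their mean log2 signal over the 4 arrays reached 89.0, which is 2 times the floor. That left 6678 probe sets, with 1 for each of the 10 genes. The 4 others did not reach the limit: the second and the third probe set of Klf9, a second of Dusp1 and a second of Nr3c1, of which all but the second of Klf9 were below the floor on all 4 arrays. Kidney markers were present, with Slc34a1 of the proximal tubule at 4922.3 and 5024.0 in the SHR nicotine and saline pools and at 3871.9 and 3888.3 in the BN nicotine and saline pools. Of 8 adrenal cortex markers, 6 were on the array, and all 6 stayed below the 89.0 limit on every array, with Cyp11b1, the enzyme of the last step to corticosterone, between 9.4 and 12.3.

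**Figure D1:**
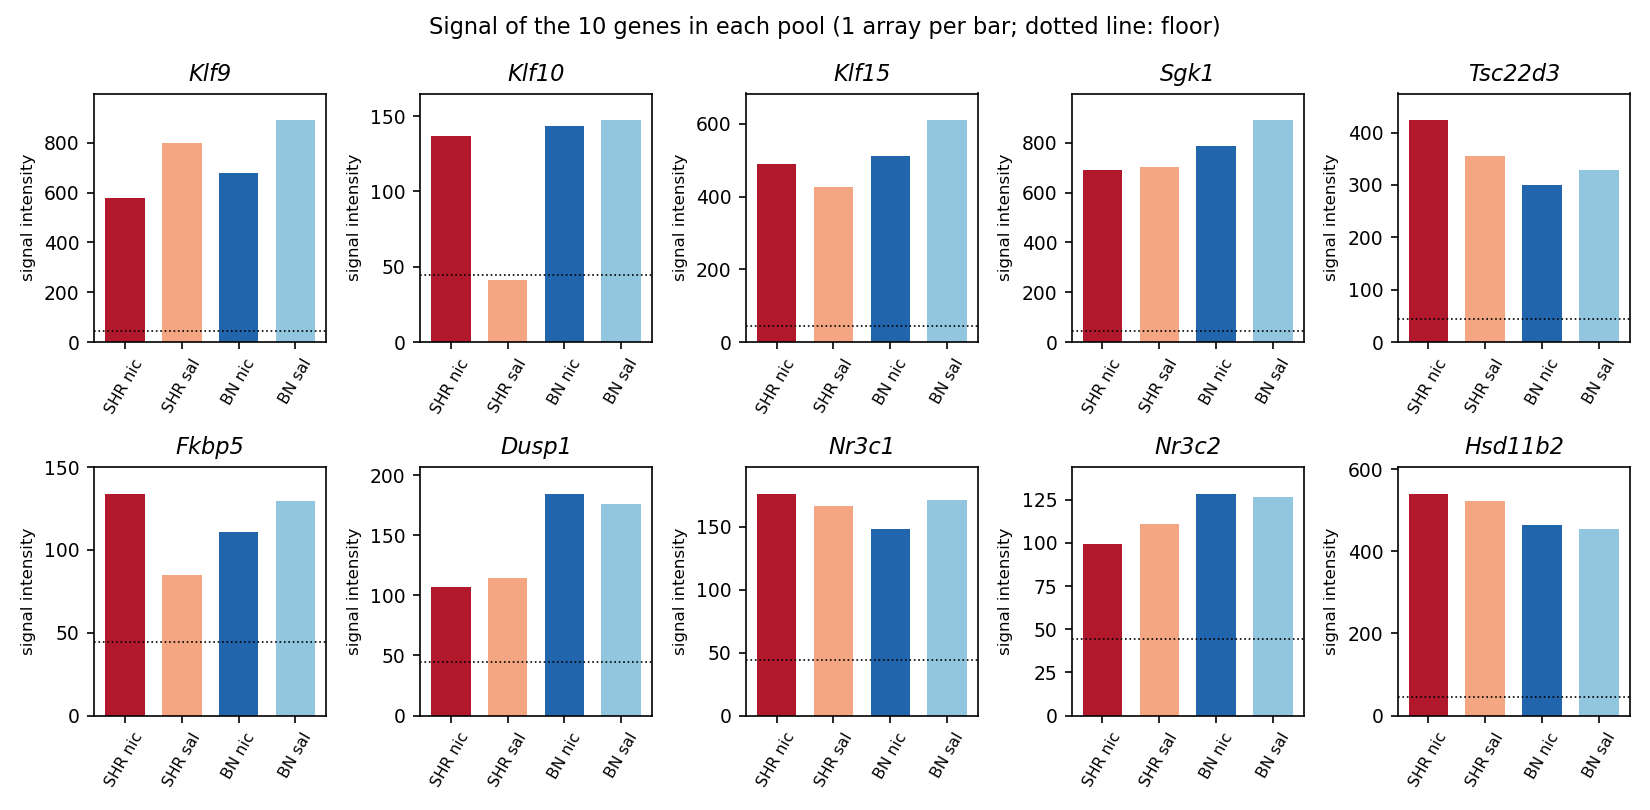
Signal intensity (linear, arbitrary units) of the tested probe set of each of the 10 genes, with 1 bar per pool and therefore no error bar; nic stands for nicotine, sal for saline, and the dotted line is the floor of 44.5. Klf9 is lower in both nicotine pools than in the saline pool of its strain, Klf10 is below the floor in the SHR saline pool only, and Dusp1 is lower in both SHR pools than in both BN pools.

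Klf9, a zinc finger transcription factor induced by glucocorticoids and thyroid hormone, stood lower under nicotine in both strains. Its tested probe set read 576.6 in the SHR nicotine pool against 800.5 in the SHR saline pool, and 678.5 in the BN nicotine pool against 890.6 in the BN saline pool. Both nicotine pools lay below both saline pools. The signal was 1.39-fold lower under nicotine in SHR (log2 -0.47) and 1.31-fold lower in BN (log2 -0.39). Averaged over strains the log2 difference was -0.43 (SE 0.07), rank 33 from the lowest among 6678 probe sets. Fewer cells of a type and less RNA per cell cannot be told apart in such whole-tissue RNA, here or in the results that follow.

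A second Klf9 probe set, too dim for the test, had the same order of pools. It read 68.2 in the SHR nicotine pool against 88.0 under saline, and 70.4 in the BN nicotine pool against 93.6 under saline, with log2 ratios of -0.37 and -0.41. Both probe sets were designed on the same transcript record, per the platform annotation, and were hybridised to the same RNA. Their likeness therefore repeats the measurement, not the pools. The third lay between 24.1 and 40.9 on the 4 arrays and gives no ratio.

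Over all 6678 probe sets limma called 3 for nicotine against saline averaged over strains, which is 0.0449%. Klf9 is 1 of the 3, but it was chosen on this ratio, so its call is no test of Klf9 and not independent evidence. That call held in 3 of 8 alternative settings. The others, named after their values were seen, are the kallikrein Klk1b3 of a family with near-identical members (log2 0.41) and the phospholipase Pla2g12a (log2 -0.90). After quantile normalisation or cyclic loess 0 probe sets passed, with an unadjusted p under 0.05 for 257 and 264 by limma.

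The 5 genes nearest to Klf9 over the 4 arrays were found by the root mean square difference of log2 signals, each centred on its own mean, among 5794 other named probe sets. Nearest was Cdc123, an assembly factor for translation initiation, at 0.036, with 70.6 and 99.5 in the SHR nicotine and saline pools and 87.6 and 107.7 in the BN nicotine and saline pools. Pgap2, which remodels lipid anchors of membrane proteins, followed at 0.052, Carhsp1 at 0.055, the adaptor gene Bcar1 at 0.056 and Kctd9 at 0.063. With many genes and 4 arrays, some profiles of this kind lie close by construction. Of the other members, Sgk1 was nearest to Klf9, at 0.181 and rank 447, and Klf10 farthest, at 0.829 and rank 5767.

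**Figure D2:**
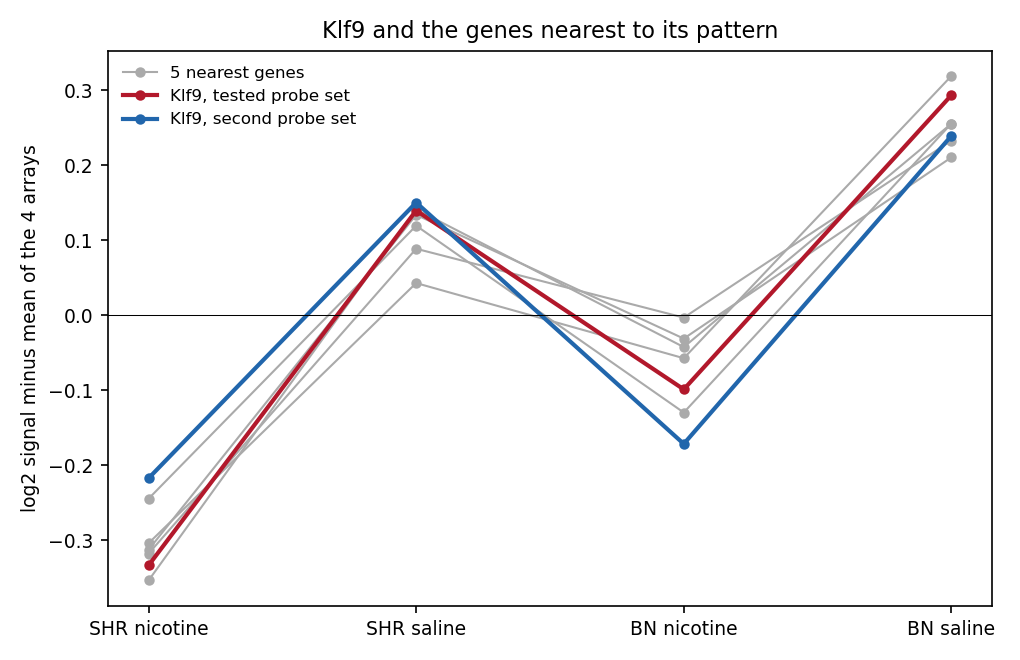
Log2 signal minus its mean over the 4 arrays (vertical axis) in each pool (horizontal axis) for the tested and the second Klf9 probe set and for the 5 genes nearest to the tested one; points are single arrays joined by lines to guide the eye. Both Klf9 probe sets are highest in the BN saline pool and lowest in the SHR nicotine pool.

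The clock genes Nr1d1 and Nr1d2 also stood highest in the BN saline pool, where Klf9 was highest. Nr1d1, a clock repressor, read 94.7 and 71.2 in the SHR nicotine and saline pools, and 95.4 and 195.9 in the BN nicotine and saline pools. Its relative Nr1d2 read 147.3 and 168.4 in SHR, and 154.7 and 277.6 in BN, in the same order. The summed signal of the 15 clock genes on the array was 1319.7 and 1236.1 in SHR, and 1358.7 and 1738.3 in BN, nicotine before saline. The likeness to Klf9 did not extend to SHR for Nr1d1, whose log2 nicotine ratio there was 0.41, while that of Nr1d2 was -0.19. Of the 7 tested clock genes 4 were higher under nicotine in SHR, and 1 in BN. The labels give no time of day of tissue collection, and the part of the clock in the Klf9 values was not tested.

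Klf10, a factor induced early by TGF-beta and by other signals, differed in 1 pool only. Its probe set read 137.0 in the SHR nicotine pool against 41.3 in the SHR saline pool, and 143.3 in the BN nicotine pool against 147.3 in the BN saline pool. The SHR saline pool is the one below the floor, and the other 3 lie between 137.0 and 147.3. In SHR the signal was at least 3.08-fold higher under nicotine, the highest such ratio among the 6678 probe sets, and in BN the log2 ratio was -0.04. The gene has 1 probe set on the array, so no second one can be set beside this value.

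Klf15, a glucocorticoid-induced factor that drives gluconeogenesis and the use of amino acids, showed ratios of opposite sign in the strains. The probe set read 488.5 in the SHR nicotine pool against 427.1 under saline, and 510.4 in the BN nicotine pool against 610.4 under saline, with log2 ratios of 0.19 and -0.26. The SHR saline pool was the lowest and the BN saline pool the highest, so the nicotine pools of the strains lay closer together than the saline pools. Averaged over strains the difference was -0.03 (SE 0.10).

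Fkbp5, a co-chaperone that lowers the hormone affinity of the glucocorticoid receptor and is itself induced through it, had the largest SHR nicotine ratio among the members after Klf10. It read 134.0 in the SHR nicotine pool against 84.6 in the SHR saline pool, and 110.7 in the BN nicotine pool against 129.7 in the BN saline pool. The SHR nicotine pool was the highest of the 4 and the SHR saline pool the lowest. This is 1.58-fold higher under nicotine in SHR (log2 0.66, rank 28 from the highest among 6678) and 1.17-fold lower in BN (log2 -0.23). Of the 8 members not chosen on a nicotine ratio, Fkbp5 was the 1 that reached 1.5-fold in SHR, where 1.26% of all probe sets did. In BN 0 of the 8 reached it, and 0.854% of all probe sets did.

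Tsc22d3 encodes GILZ, a leucine zipper protein that carries anti-inflammatory effects of glucocorticoids. In SHR it read 423.9 under nicotine and 356.2 under saline, and in BN 299.6 under nicotine and 328.7 under saline, with log2 ratios of 0.25 and -0.13. Both SHR pools lay above both BN pools. In SHR Sgk1 read 691.7 under nicotine and 700.8 under saline, and in BN 785.5 under nicotine and 890.6 under saline, with log2 ratios of -0.02 and -0.18. Here both SHR pools lay below both BN pools.

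Dusp1, a phosphatase that switches off MAP kinases, read 107.3 under nicotine and 114.3 under saline in SHR, and 184.6 under nicotine and 176.2 under saline in BN (log2 -0.09 and 0.07). In SHR Nr3c1 read 176.4 under nicotine and 166.8 under saline, and in BN 148.1 under nicotine and 171.4 under saline (log2 0.08 and -0.21), with the strains overlapping. For Nr3c2 the signal was 99.3 under nicotine and 111.1 under saline in SHR, and 128.5 under nicotine and 126.7 under saline in BN (log2 -0.16 and 0.02), with both SHR pools below both BN pools. Hsd11b2 stood at 540.5 under nicotine and 523.0 under saline in SHR, and 463.5 under nicotine and 455.0 under saline in BN (log2 0.05 and 0.03), with both SHR pools above both BN pools.

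Of the 8 members not chosen on a nicotine ratio, 0 passed for nicotine against saline averaged over strains (limma, adjusted p = 0.998 for each). None of the 8 had an unadjusted p under 0.05 either, the lowest being 0.201 for Sgk1, while 5.08% of all probe sets did. Their averages lay between -0.10 for Sgk1 and 0.22 for Fkbp5 on the log2 scale, with SEs from 0.08 to 0.18. Over the 8 the median log2 ratio was 0.06 in SHR and -0.16 in BN, beside -0.007 and 0.002 over all probe sets. The sign was opposite in the strains for 6 of the 8, and for 51.1% of all probe sets. The SD of the ratio over all probe sets was 0.20 in SHR and 0.18 in BN, and of the 8 members 2 exceeded it in SHR (Fkbp5 and Tsc22d3) and 4 in BN (Klf15, Fkbp5, Nr3c1 and, narrowly, Sgk1). Sizes beyond 1 SD are common among all probe sets. In SHR Klf15, just inside 1 SD, stood at percentile 74.1 of all probe sets by size of ratio. In BN Sgk1, just beyond it, stood at percentile 76.7.

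**Figure D3:**
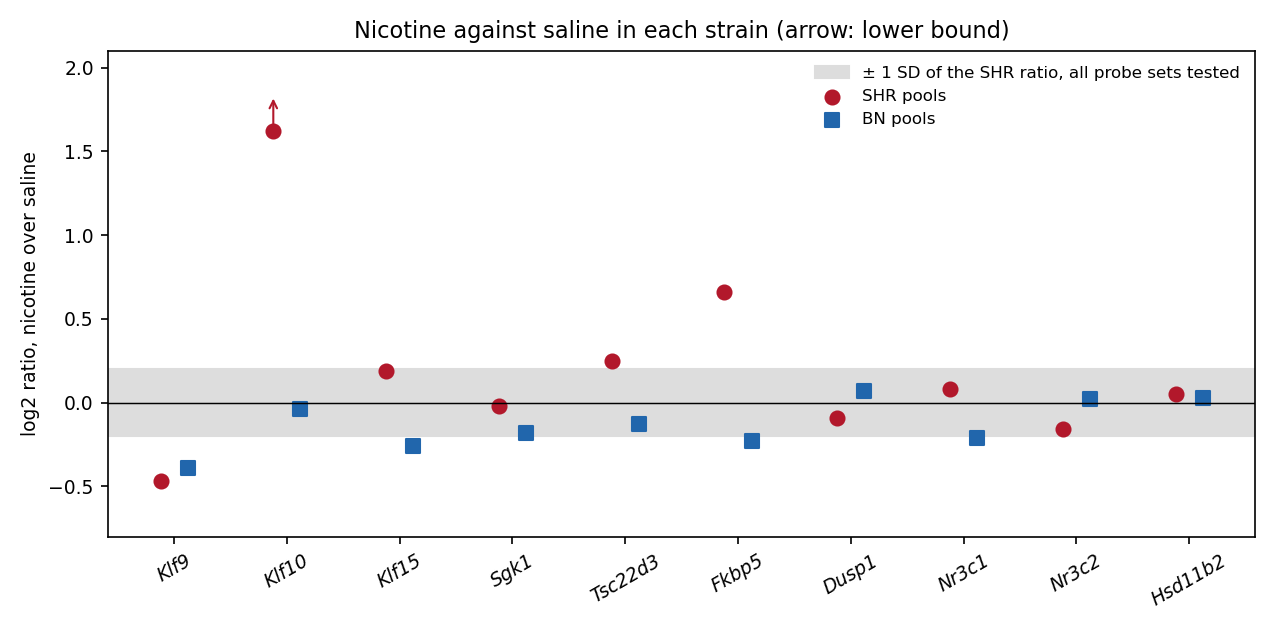
Log2 ratio of nicotine over saline (vertical axis) for the 10 genes, with circles for the SHR pools and squares for the BN pools, 1 array on each side of every ratio; the grey band is 1 SD of the SHR ratio over 6678 probe sets (0.20) on each side of 0. Klf9 lies below the band in both strains, and Klf10 (a lower bound), Fkbp5 and Tsc22d3 (0.25) lie above it in SHR; in BN Klf15 (-0.26), Fkbp5 (-0.23) and Nr3c1 (-0.21) lie below it.

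**Figure D4:**
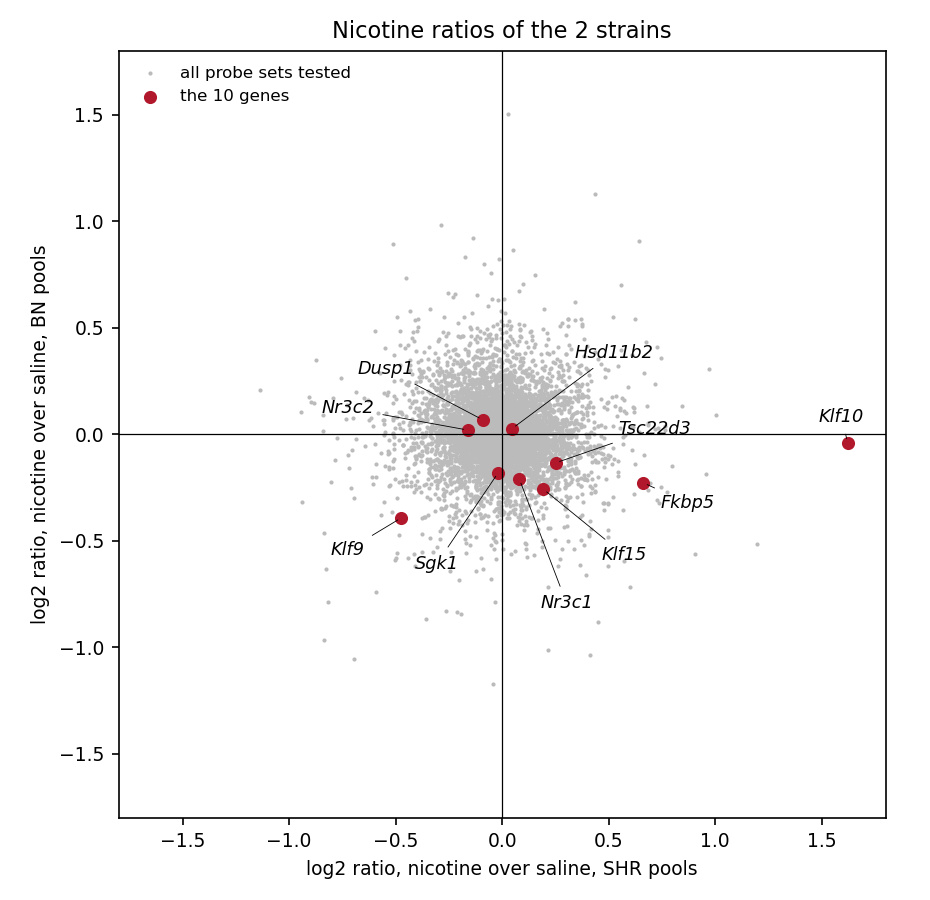
Log2 ratio of nicotine over saline in SHR (horizontal axis) and in BN (vertical axis) for 6678 probe sets in grey and the 10 genes in red; each point is 1 probe set. Klf9 is the member low on both axes (-0.47 and -0.39), and Klf10 lies at the far right edge at 1.62.

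Between the strains, Dusp1 showed the clearest difference among the members. Averaged over treatments it was 1.63-fold lower in SHR (log2 -0.70 with SE 0.13, limma adjusted p = 0.00125), and it was lower under both treatments, with log2 ratios of -0.78 under nicotine and -0.62 under saline. The call held in 11 of 12 alternatives, with adjusted p from 0.00106 to 0.367, and was lost with no filter on low probe sets. Sgk1 was 1.20-fold lower in SHR (log2 -0.26 with SE 0.08, limma adjusted p = 0.0213), and Tsc22d3 was 1.24-fold higher (log2 0.31 with SE 0.10, limma adjusted p = 0.0457). The Sgk1 call was lost on leaving out any 1 of the 4 pools, with adjusted p from 0.0502 to 0.313. The Tsc22d3 call was lost without the SHR nicotine, BN nicotine or BN saline pool, at 0.284, 0.345 and 0.131, and with strain as the only factor, at 0.0856. Both calls were also lost after quantile normalisation, after cyclic loess, with no filter and without the intensity trend, and each held in 5 of 13 alternatives.

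The other members did not pass. Klf15 stood just beyond the threshold (log2 -0.29, SE 0.10, adjusted p = 0.0506 with limma), with -0.06 under nicotine and -0.51 under saline. It passed in 4 of 13 alternatives, with limma adjusted p from 0.00922 to 0.812. Klf9 had a log2 difference of -0.19 (SE 0.07, adjusted p = 0.0843) and Hsd11b2 one of 0.21 (SE 0.08, adjusted p = 0.0845), both by limma. Nr3c2 stood at -0.28 (SE 0.15, adjusted p = 0.224 with limma). For Nr3c1 and Fkbp5 the limma adjusted p was 0.633 and 0.587, and Fkbp5 was opposite between treatments, at 0.28 under nicotine and -0.62 under saline. Klf10 averaged -0.90, but the SHR saline pool on which it was chosen also sets this value, which is -0.08 without that pool, so no test is given.

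In all, 3 of 9 members other than Klf10 passed for strain, 2 lower and 1 higher in SHR, beside 17.3% of all probe sets (1153 of 6678), 9.13% being lower and 8.13% higher. SHR and BN pools did not overlap for 6 of the 9, beside 58.9% of all probe sets. The median strain difference of the 9 was -0.19 on the log2 scale, and that of all probe sets -0.001. The count of 3 became 4 with the filter on the higher group mean and with the brightest probe set per gene, where Klf15 passed, and 2 with strain as the only factor. It became 1 after quantile normalisation, after cyclic loess and without the intensity trend. With no filter it was 0. Leaving out the BN nicotine pool or the BN saline pool gave 1.

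**Figure D5:**
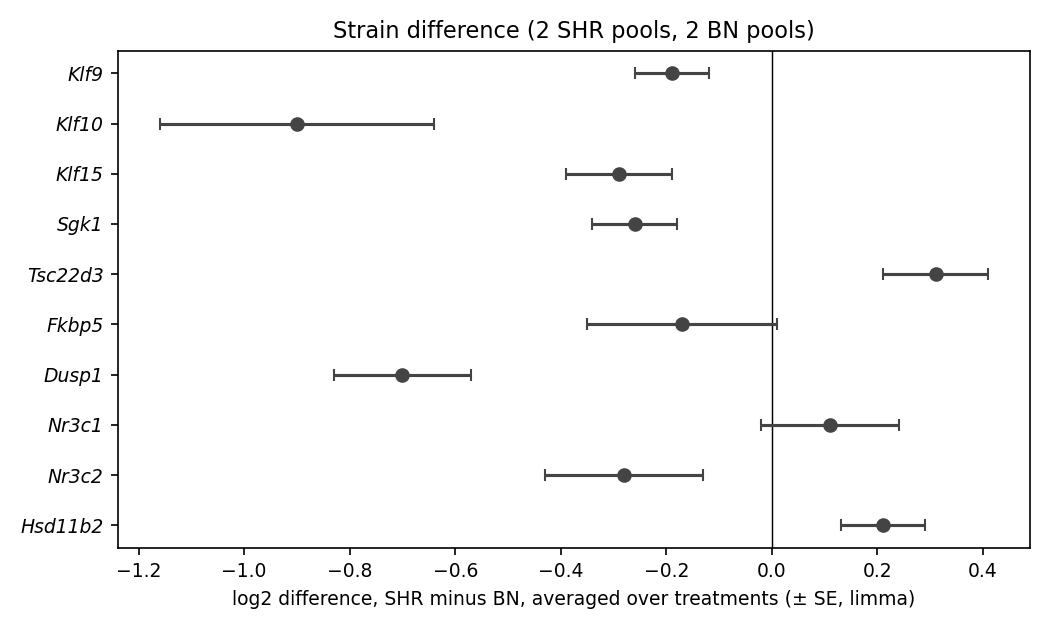
Log2 difference of SHR minus BN averaged over treatments (horizontal axis) for each of the 10 genes, from 2 SHR and 2 BN pools, with bars of 1 SE from limma. Dusp1 (-0.70) and Klf10 (-0.90, set by 1 pool) lie farthest below 0, and Tsc22d3 (0.31) farthest above.

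Markers of several cell types differed between the strains as well, and for nicotine limma called 0 in each marker list. The strain counts of markers, here and in the paragraphs that follow, stand beside 17.3% of all probe sets called for strain. Of 8 distal nephron and collecting duct markers on the array, the segments where Nr3c2, Hsd11b2 and Sgk1 act, 7 were tested, 3 being lower and 1 higher in SHR. Their summed signal was 3243.0 and 3812.2 in the SHR nicotine and saline pools, and 3848.2 and 3941.6 in the BN nicotine and saline pools. The collecting duct water channel Aqp2 read 598.3 and 864.1 in SHR, and 903.9 and 1011.8 in BN, nicotine before saline. It was lower under nicotine in both strains, as Klf9 was, whereas the intercalated cell exchanger gene Slc4a1 had nicotine ratios above 0 on the log2 scale, 0.21 in SHR and 0.15 in BN, and the list's median nicotine average was 0.01. Pvalb, a marker of the distal convoluted tubule, was below the floor on all 4 arrays. Of 6 proximal tubule markers 4 were higher and 1 lower in SHR, with sums of 13278.1 and 13737.0 in the SHR nicotine and saline pools and 11785.9 and 12223.9 in those of BN.

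The unadjusted nicotine p was under 0.05 for 2 of the 7 tested distal nephron markers and 2 of the 4 tested immune cell markers, against 5.08% of all probe sets. Of the 7 immune cell markers on the array 4 were tested, and 2 of these 4 were higher in SHR. The sum of all 7 was 4044.1 and 3428.2 in the SHR nicotine and saline pools and 2881.2 and 2608.5 in the BN nicotine and saline pools, an order of strains also seen in Tsc22d3. Cd74 and Lyz2 were the brightest of the list, and the leukocyte gene Ptprc lay between 19.3 and 28.4. Csf1r had a strain difference of 0.06 on the log2 scale. Laptm5, not tested, was lower in SHR, at -0.08 under saline and -0.20 under nicotine. For beta-actin the 3′ probe set over the 5′ one, which grows as RNA degrades, gave 1.34 and 1.39 in the SHR nicotine and saline pools, and 1.49 and 1.54 in the BN nicotine and saline pools. The same ratio for GAPDH did not separate the strains. It was 1.11 and 1.0 in the SHR nicotine and saline pools, and 1.09 and 1.07 in those of BN. The part of cell makeup and RNA integrity in the strain differences was not tested.

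Thick ascending limb markers had 1 of 4 tested higher and 1 lower in SHR, endothelial markers 1 of 3 higher, and podocyte markers 1 of 2 lower. The adipocyte gene Lpl, the 1 tested of its list, was lower in SHR. The red cell gene Hbb read 824.5 and 1111.7 in the SHR nicotine and saline pools, and 1310.6 and 876.9 in the BN nicotine and saline pools, and was not called.

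Other genes that glucocorticoids induce showed no common direction. Of 24 on the array 17 were tested, with 3 higher and 1 lower in SHR, beside 17.3% of all probe sets called for strain. The median strain difference was 0.00, and 0 were called for nicotine (limma, unadjusted p under 0.05 for 2). Higher in SHR were Ddit4, an inhibitor of the growth kinase mTOR (log2 0.59, limma adjusted p = 0.0114), Angptl4, an inhibitor of lipoprotein lipase (0.48, 0.012), and the amino acid carrier gene Slc38a2 (0.47, 0.011). The sulfotransferase gene Sult1a1, from a family with close relatives, was lower (log2 -0.91, limma adjusted p = 1.23e-07). The largest nicotine averages were -0.41 for Nfkbia, the inhibitor of NF-kappaB, and 0.21 for Angptl4. Nfkbia read 72.8 and 130.5 in the SHR nicotine and saline pools, and 129.0 and 127.7 in the BN nicotine and saline pools, so that the SHR nicotine pool stands alone.

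Among the chaperones and cofactors that hold or assist the receptors, 12 of 14 on the array were tested, and 2 were higher in SHR, 0 lower, a share near the 17.3% of all probe sets called for strain. They are Fkbp4, the co-chaperone that links the receptor to transport along microtubules (log2 0.36, limma adjusted p = 0.00983), and Stip1, which joins heat shock proteins 70 and 90 (0.32, 0.0321). The list's median strain difference was 0.12. For nicotine limma called 0, with an unadjusted p under 0.05 for 1, and the largest averages were -0.20 for Bag1 and 0.19 for Hspa4.

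Of 5 tested steroid-handling genes 2 were lower in SHR, beside 17.3% of all probe sets called for strain, and the median was -0.21. H6pd, which supplies the cofactor for glucocorticoid activation by Hsd11b1, was lower (log2 -0.39, limma adjusted p = 0.0162), and so was the male-specific steroid hydroxylase Cyp2c11 of a family with near-identical members (-0.82, 1.03e-06). Hsd11b1 itself, which regenerates corticosterone, read 2541.9 and 2466.4 in the SHR nicotine and saline pools, and 2662.2 and 2885.9 in the BN nicotine and saline pools (limma adjusted p = 0.143 for strain). For nicotine limma called 0, with an unadjusted p under 0.05 for 1, the largest averages being 0.23 for Cyp2c11 and 0.04 for H6pd.

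All 14 genes on the array of sodium transport under mineralocorticoid control were tested. In SHR 3 were lower and 0 higher, beside 17.3% of all probe sets called for strain, with a median of 0.06. Lower were Fxyd4, a sodium pump regulator of the collecting duct (log2 -0.76, limma adjusted p = 0.000148), the deubiquitinase gene Usp2 (-0.56, 0.0128) and the thiazide-sensitive transporter gene Slc12a3 (-0.32, 0.0252). The sodium channel subunit genes Scnn1b and Scnn1g, on which Sgk1 acts, stood at 0.27 and 0.42 with limma adjusted p of 0.116 and 0.0542. For nicotine limma called 0, also by unadjusted p, and the largest averages were 0.25 for the channel subunit gene Scnn1a and -0.21 for Usp2.

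Of 9 further Krüppel-like or related factors on the array, 5 were tested and 0 were called for strain or for nicotine by limma. The unadjusted limma p was under 0.05 for 3 by strain and 0 by nicotine. Among all 6678 probe sets it was under 0.05 for 1982 by strain and for 5.08% by nicotine. The median strain difference was -0.27, and Klf2, a factor of flow-exposed endothelium, stood at -0.38 (limma adjusted p = 0.0504). The largest nicotine averages were 0.19 for Klf3 and 0.18 for Klf16.

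Of 15 clock genes on the array 7 were tested, 3 lower and 1 higher in SHR, beside 17.3% of all probe sets called for strain, with a median of -0.40. Nr1d1 was lower averaged over treatments (log2 -0.74, limma adjusted p = 0.0399). Its log2 ratios were -1.46 under saline and -0.01 under nicotine, with the BN saline pool alone high at 195.9. Also lower were Usp2, counted above as well, and Hlf, a clock output factor (log2 -0.41, limma adjusted p = 0.0482). The repressor Bhlhe40 was higher (log2 0.55, limma adjusted p = 0.00958). For nicotine limma called 0, with an unadjusted p under 0.05 for 1, and the largest averages were -0.52 for Nr1d2 and -0.31 for Nr1d1. The median nicotine ratio of the list was 0.07 in SHR and -0.08 in BN.

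Immediate early genes, which respond to handling and tissue stress as Dusp1 does, were mostly dim. Of 18 on the array 10 lay below the limit on all 4 arrays, and 7 were tested. The AP-1 factor Jun was the 1 called, higher in SHR (log2 0.46, limma adjusted p = 0.0216), beside 17.3% of all probe sets called for strain. The list median was 0.00. For nicotine limma called 0, also by unadjusted p, and the largest averages were -0.28 for Egr1 and 0.17 for Jund.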

How the data were processed

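The authors deposited 1 linear intensity per probe set and array, computed with MAS5, a tool named in the submitters' processing notes. Settings and scaling target were not given in the sources used here, but each array had a 2% trimmed mean of 150.0. Medians lay between 64.9 and 68.2, and 58.9% to 60.7% of signals were at or above the floor. The 57 control probe sets were left out. Names came from the platform annotation, updated to current RefSeq symbols. No genome was used.

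An additive model of strain and treatment was fitted with limma 3.58.1 in R 4.3.3 (lmFit, eBayes with intensity trend, Benjamini-Hochberg at 0.05) to all 6678 probe sets that passed the limit. It leaves 1 residual degree of freedom, which also holds any nicotine response that differs between strains; 15.5 prior degrees of freedom come from other probe sets. The p-values set a difference against that residual and the variance shared with other probe sets, not against spread between replicate pools or animals. The number of arrays limits precision. Single-pool ratios have no test. The fit was also run on simulated arrays that held strain effects only, so that run does not bear on the nicotine calls or on responses that differ between strains. A gene in a list was represented by its probe set of highest mean signal. Genes named from lists were those past the threshold for strain (at most 4, by size) and the 2 with the largest nicotine average. A few others (Hsd11b1, Scnn1b, Scnn1g, Klf2, and markers beside the results) were chosen after their values were seen. The members and lists were chosen with earlier results of these data known. Alternatives were other normalisations, floors and filters, no trend, 1 probe set per gene, strain alone, and each pool left out.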

Additional observations from a re-analysis of the deposited data

Results flagged for a closer look

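The nicotine ratio of Fkbp5 ran in opposite directions in the strains, each beyond the SD of that ratio over all probe sets. That SD covers tested probe sets of all signal levels, whereas Fkbp5 was dim, with 84.6 in the SHR saline pool. The log2 ratio was 0.66 in SHR and -0.23 in BN, and SHR minus BN was 0.89. With 1 pool per group this difference was not tested.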

How the results depend on the processing

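Precision is limited by 4 arrays and 1 pool per group. Probe sets past the threshold for strain numbered 1153, and 675 after quantile normalisation, 707 after cyclic loess, 576 without the trend, 0 when dim probe sets were kept (1719 with an unadjusted p under 0.05 by limma), and from 506 to 985 with 1 pool left out. The members called for strain, Klf10 aside, numbered 1 after quantile normalisation, cyclic loess or without the trend, 0 with no filter and from 1 to 3 with 1 pool left out, against 3. For nicotine, 3 probe sets passed, and 0 after quantile normalisation, after cyclic loess, with the filter on the higher group mean, with no filter and without the trend (limma unadjusted p under 0.05 for 257, 264, 376, 460 and 323), while 18 passed with the floor at the 60th percentile. With 1 pool left out the Klf9 strain value of -0.19 ranged from -0.43 to 0.04 and that of Fkbp5 from -0.50 to 0.16: Klf9 became 0.04 without the SHR nicotine pool and 0.00 without the BN saline pool, and Fkbp5 became 0.16 without the SHR saline pool; these fits have strain as the only factor and unequal treatments. The causes of the other shifts were not tested. Single-pool ratios of the members kept their sign under quantile normalisation, cyclic loess and the floor at the 20th percentile, and the numbers of probe sets 1.5-fold apart stayed within 1.5 times. No paired analysis was possible because each group has 1 pool and the labels give no replicate numbers.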
